A study of Mus musculus with 8 samples.

Results

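The small leucine-rich proteoglycan genes Dcn, Bgn, Lum, Fmod, Prelp, Ogn and Aspn were followed in sorted mouse hepatic stellate cells, as 7 of 19938 genes measured. They were chosen by name: each probe set (the group of array probes summarised as 1 value) was taken where the platform's annotation gives a member's symbol and no other. All 7 were found, each with 1 probe set. Hepatic stellate cells are pericytes that store vitamin A beside the sinusoids of the liver. RNA came from male Balb/c mice, with 4 arrays per group. The quiescent group held cells of normal mice. The reverted group held cells of mice given 4 injections of carbon tetrachloride (CCl4), a liver toxin that induces fibrosis, at 0.5 µl per g of body weight and 2 per week, and then left to rest for 45 days. An age of 18 weeks is stated for both groups together, and 16 weeks in the statement on the reverted group. Both groups were isolated on a density gradient, sorted on retinoid autofluorescence and lysed straight after the sort, a gate that collects only cells holding retinoids. The labels do not say whether an array holds 1 mouse or a pool, so the p-values rest on a spread between samples that may be technical in part or in whole.

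Small leucine-rich proteoglycans are secreted core proteins built around a run of leucine-rich repeats. Most carry chondroitin, dermatan or keratan sulfate chains. They bind collagen fibrils and limit their lateral growth, and several also bind growth factors and cell surface receptors. Decorin is known for binding TGF-beta and receptor tyrosine kinases, and biglycan for signalling through Toll-like receptors once it is released from the matrix. In the liver both are made mainly by stellate cells and portal fibroblasts, and the family is known as part of the scar laid down in fibrosis.

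The arrays of both groups had median log2 signals between 7.66 and 7.74. Of 16 stellate markers 15 were measured, and their signals averaged over the 8 arrays stood between percentiles 89.4 and 100 of all genes. Their mean log2 signal lay between 13.47 and 13.57 in every array, so both groups carried these markers. Some markers of other cells were bright too, up to percentile 96.6 for hepatocytes (median 57.4) and 95.2 for endothelium (median 49.7). Smooth muscle markers reached percentile 98 (median 51.9). The brightest of them is also on the stellate list, and the next was at percentile 97.9. The quiescent array numbered 4 had the lowest weight when arrays were weighted by their agreement with their group. All comparisons below are reverted minus quiescent on the log2 scale of the deposited values, tested with limma across all 19938 genes with Benjamini-Hochberg adjustment. A gene was called changed at an adjusted p under 0.05, which 142 genes (0.712%) reached.

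None of the 7 small leucine-rich proteoglycan genes was called changed 45 days after CCl4. In limma 0 rose and 0 fell, against 0.712% of all genes called (0.527% up and 0.186% down), and 0 of the 7 had an unadjusted p under 0.05, against 16.0% of all genes. Adjusted p ran from 0.474 for Ogn to 0.858 for Aspn. For 6 of the genes the log2 change lay between -0.05 and 0.05, while Ogn stood at -0.25 with a wide error. The median log2 change over the 7 was -0.02 and that over all genes -0.01. In 0 of the 7 did the 4 reverted arrays lie on one side of the 4 quiescent arrays, a separation that 8.73% of all genes showed. A p that misses the threshold does not show that the groups were alike, so the interval of each difference is given below.

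**Figure D1:**
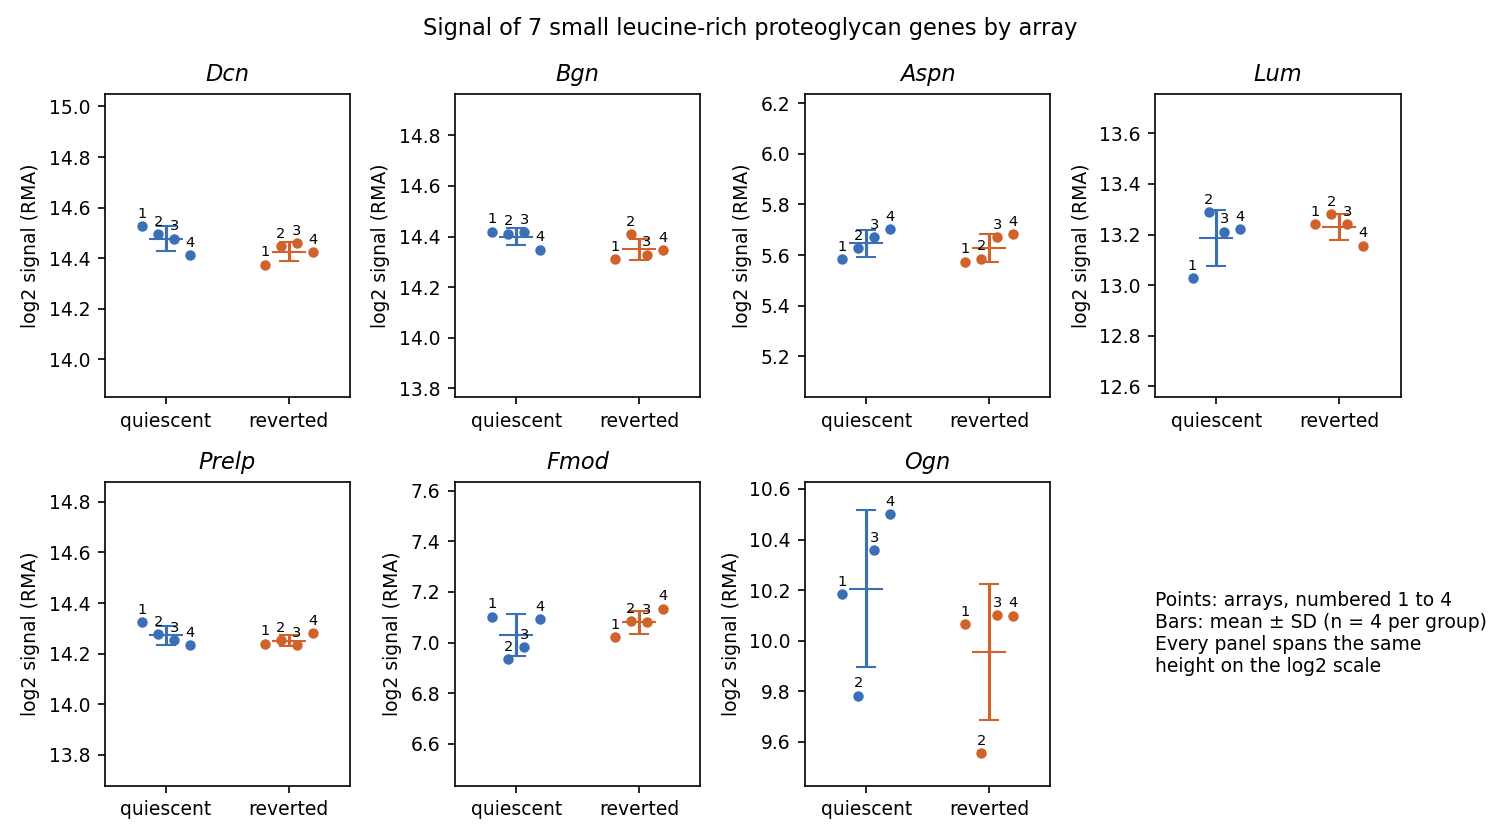
Log2 signal of each of the 7 genes (vertical axis, RMA values) in the 4 quiescent and 4 reverted arrays (horizontal axis), with each array as a numbered point and bars for the mean ± SD; each panel covers the same height, so scatter can be compared between panels but levels cannot. The groups overlap in all 7 panels, and Ogn scatters over 0.94 log2 units where the other 6 genes span 0.26 or less.

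Dcn, Bgn and Aspn form the class closest to decorin. Dcn encodes decorin, which carries a single chondroitin or dermatan sulfate chain and coats collagen fibrils. Its log2 signal was 14.53, 14.49, 14.48 and 14.41 in quiescent arrays 1 to 4 and 14.37, 14.45, 14.46 and 14.42 in reverted arrays 1 to 4. The highest 3 arrays were quiescent and the lowest was reverted array 1, but quiescent array 4 lay among the reverted arrays. The mean went from 14.48 ± 0.05 to 14.43 ± 0.04 (SD, n = 4), which is -0.05 on the log2 scale with an SE of 0.04 (limma adjusted p = 0.538). The 95% interval of the ratio of reverted to quiescent signal ran from 0.906 to 1.03.

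Bgn encodes biglycan, the nearest relative of decorin. It read 14.42, 14.41, 14.42 and 14.35 in the quiescent arrays and 14.31, 14.41, 14.33 and 14.35 in the reverted arrays, in the order of their numbers. As for Dcn, quiescent array 4 lay low and reverted array 1 was the lowest of all. The log2 change was -0.05 ± 0.04 (SE; limma adjusted p = 0.529), and the ratio of signals had a 95% interval from 0.909 to 1.03. With quiescent array 4 left out, all 4 reverted arrays of Dcn and of Bgn lay below the other 3 quiescent arrays. For Bgn the margin was very narrow, with reverted array 2 at 14.4102 and quiescent array 2 at 14.4116. These were 2 of the 7 genes, while 11.4% of all genes lay below in that comparison and 19.9% lay apart in either direction. Both genes then stood at -0.07, and neither was called, at an adjusted p of 0.306 (Dcn) and 0.346 (Bgn). The separation without this array was looked at after the values had been seen.

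Aspn encodes asporin, which binds collagen and TGF-beta, carries a run of aspartates near its N-terminus and lacks the chain attachment site of decorin. Its probe set was dim in every array, at 5.58, 5.63, 5.67 and 5.70 in quiescent arrays 1 to 4 and 5.57, 5.59, 5.67 and 5.68 in reverted arrays 1 to 4. The group values interleave, and at percentile 7.2 of signal over all genes the table gives no means to tell the transcript from background. The log2 change was -0.02 ± 0.04 (SE; limma adjusted p = 0.858), with no stable sign over the alternatives.

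Lum, Prelp and Fmod belong to a class in which lumican and fibromodulin carry keratan sulfate. Lum encodes lumican, which orders collagen fibrils in cornea, skin and tendon. It read 13.03, 13.29, 13.21 and 13.22 in the quiescent arrays and 13.24, 13.28, 13.24 and 13.16 in the reverted arrays. Quiescent array 1 was the lowest and the other 7 arrays fell within a narrow band. The means were 13.19 ± 0.11 and 13.23 ± 0.05 (SD, n = 4), a log2 change of 0.04 ± 0.06 (SE; limma adjusted p = 0.732). Without quiescent array 1 the log2 change of Lum was -0.01 (adjusted p = 0.947), so the sign of this small difference came from 1 array.

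Prelp encodes a core protein with a basic, heparin-binding N-terminus that is known from basement membranes and cartilage. Its signal was 14.32, 14.28, 14.25 and 14.23 in quiescent arrays and 14.24, 14.25, 14.23 and 14.28 in reverted arrays. The span over all 8 arrays was 0.09, the narrowest of the 7 genes. The log2 change was -0.02 ± 0.04 (SE; limma adjusted p = 0.803), and the 95% interval of the ratio ran from 0.932 to 1.04. Prelp stood at -0.0025 without quiescent array 1, its highest, and at -0.03 without quiescent array 4, its lowest.

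Fmod encodes fibromodulin, which binds fibrillar collagen beside lumican and modulates its cross-linking. It read 7.10, 6.93, 6.98 and 7.09 in the quiescent arrays and 7.02, 7.08, 7.08 and 7.13 in the reverted arrays. The highest array was reverted and the lowest 2 quiescent, with the rest mixed. The log2 change was 0.05 ± 0.05 (SE; limma adjusted p = 0.617), and the interval of the ratio ran from 0.959 to 1.12. Without quiescent array 2 the log2 change of Fmod was 0.02.

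Ogn, which encodes osteoglycin (mimecan), belongs to another class whose members have fewer leucine-rich repeats. It showed the widest scatter of the 7 genes. Its log2 signal was 10.18, 9.78, 10.36 and 10.50 in quiescent arrays 1 to 4 and 10.07, 9.56, 10.10 and 10.10 in reverted arrays 1 to 4. The array numbered 2 was the lowest in each group, and the highest 3 arrays were quiescent. The mean went from 10.21 ± 0.31 to 9.96 ± 0.27 (SD, n = 4), a log2 change of -0.25 ± 0.17 (SE; limma adjusted p = 0.474), and the 95% interval of the ratio ran from 0.647 to 1.09. The value moved by over 1.5 times with each of 3 arrays: it was -0.39 without quiescent array 2, -0.15 without quiescent array 4, the highest, and -0.12 without reverted array 2. With the array number as a block its adjusted p was 0.155. Its SD within groups, 0.29, exceeded that of 96.4% of the 4984 genes in its band of signal (the 50th to 75th percentile), where the median was 0.11. For Lum the SD was 0.09, above 84.0% of the 200 genes in the top 1% of signal, and Dcn, Bgn and Prelp lay at or under percentile 40.5 of the same band.

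**Figure D2:**
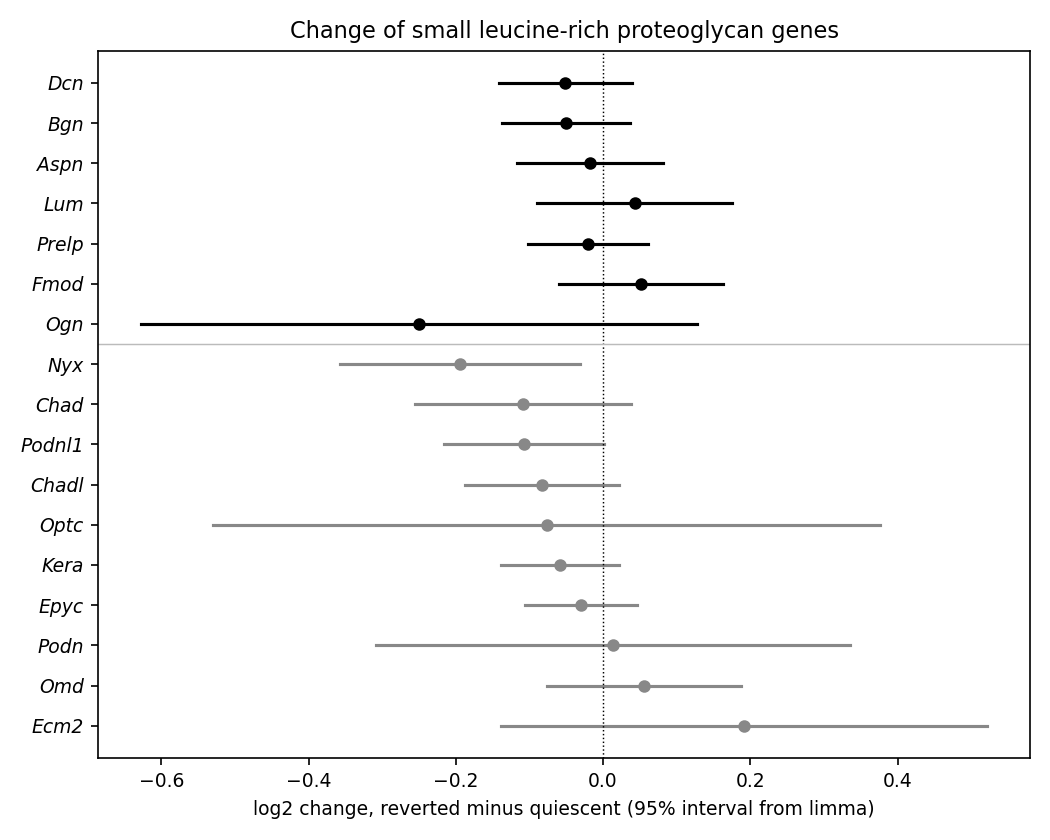
Log2 change from quiescent to reverted cells (horizontal axis) with its 95% interval from limma for the 7 genes (black) and for 10 other genes of the family (grey), 4 arrays per group. The intervals of the 7 genes all include 0, and that of Ogn, from -0.63 to 0.13, is the widest among them.

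The genes sat at different places on the array's scale, which limits what the comparison can show. By mean signal over the 8 arrays Dcn ranked 4, Bgn 7, Prelp 15 and Lum 199 from the brightest of 19938 genes, whereas Ogn stood at percentile 74.2, Fmod at 34.9 and Aspn at 7.2. A signal depends on its probes as well as on the transcript, so these places do not order the genes by mRNA abundance. On oligonucleotide arrays a change of a very bright or very dim probe set is in general read as smaller than it is. Whether this held for these genes was not tested. Among the 200 genes in the top 1% of signal, 1 (0.5%) was called changed, against 0.712% of all genes. It was Abi3bp, with a log2 change of -0.28, and the largest difference of any of the 200 was 0.64. Between the 90th and 99th percentile 14 of 1794 genes (0.78%) were called, and between the 75th and 90th 32 of 2991 (1.07%). In the lowest 25% of signal 4 of 4984 genes (0.0803%) were called, between the 25th and 50th percentile, which holds Fmod, 27 of 4985 (0.542%), and between the 50th and 75th, which holds Ogn, 64 of 4984 (1.28%).

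**Figure D3:**
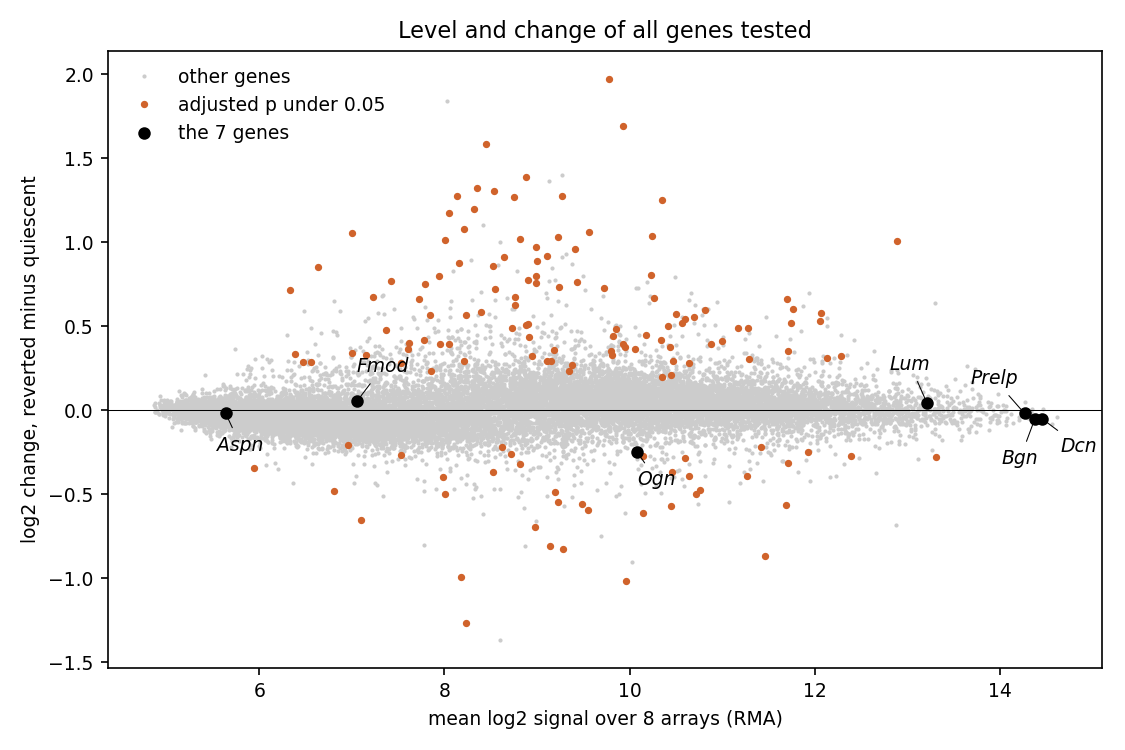
Mean log2 signal over the 8 arrays (horizontal axis) and log2 change from quiescent to reverted cells (vertical axis) for all 19938 genes in grey, the 142 called genes in orange and the 7 small leucine-rich proteoglycan genes in black. Dcn, Bgn, Prelp and Lum lie at the bright end and Aspn at the dim end, while Fmod and Ogn lie between.

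The other measured genes of the family were not called either. Of 11 other small leucine-rich proteoglycan genes 10 were measured and Tsku was not analysed here. In limma 0 of the 10 rose and 0 fell, and their median log2 change was -0.07 against -0.01 over all genes. An unadjusted p under 0.05, which 16.0% of all genes had, was found in 1 of the 10. That gene was Nyx, encoding nyctalopin of the retina, with a log2 change of -0.19 ± 0.07 (SE; limma adjusted p = 0.247, or 0.0708 with quiescent array 4 left out). The other probe set of Nyx read -0.07. It was far dimmer, at 6.18 in quiescent and 6.11 in reverted arrays, against 10.52 and 10.33 for the one used. Whether either reports the Nyx transcript was not tested. Next by p came Podnl1, a podocan relative, at -0.11 (adjusted p = 0.319). Podn, which encodes podocan, had a log2 change of 0.01 with an interval from -0.31 to 0.34.

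Most of these genes lie side by side in the genome. In the RefSeq gene order (assembly GRCm38.p6, used for names and order only) Dcn, Lum, Kera and Epyc follow each other, Optc lies beside Prelp and Fmod, and Ecm2, Aspn, Omd and Ogn form another row, while Bgn has no relative among its nearest coding genes. Neighbours stood at unlike places of the signal scale. Beside Dcn and Lum, the cornea gene Kera (keratocan) was at percentile 12.5 and the cartilage gene Epyc (epiphycan) at 7.4, with log2 changes of -0.06 and -0.03. Ecm2, at percentile 65.9, had a log2 change of 0.19 ± 0.15 (SE; limma adjusted p = 0.528), opposite in sign to that of Ogn. In quiescent arrays 1 to 4 Ecm2 read 8.89, 9.32, 9.60 and 9.65 and in reverted arrays 9.67, 9.47, 9.54 and 9.55, so that quiescent array 1 was low here too; without that array the log2 change was 0.03, and without quiescent array 4 it was 0.29. Omd (osteomodulin) was at percentile 18.6 with a log2 change of 0.06, and of 0.10 without quiescent array 4. All 4 genes of this row lie inside the span of Cenpp, a centromere protein gene, whose own probe set stood at percentile 3.3 with a log2 change of 0.00 (adjusted p = 0.981).

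By likeness of profile, the root mean square difference between centred log2 values over the 8 arrays was smallest to Ogn for Cavin3 (0.11), Csmd3 (0.11) and Ces2g (0.12). Each of these read low in the arrays numbered 2, and none was called changed. For Lum the nearest were R3hcc1l, Galt and Bicra, at 0.03 each, and quiescent array 1 was the lowest in all 3. These are descriptions over the same 8 arrays and carry no test.

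Genes that act on or with small leucine-rich proteoglycans gave 5 calls among the 127 genes of 5 further lists (3.94%), against 0.712% of all genes. These lists were drawn up with some of the calls known, so the share is a description. The collagens and fibril partners had 16 measured genes, of which 1 rose and 0 fell, with a median log2 change of 0.00. The riser was Lox, encoding lysyl oxidase, which cross-links the collagen that fibromodulin and decorin bind, from 6.48 ± 0.19 to 7.53 ± 0.19 (SD, n = 4; adjusted p = 0.00519). The other 15 genes of this list, collagens and elastic fibre genes among them, were not called. Of the 16, 9 had an unadjusted p under 0.05, against 16.0% of all genes.

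The enzymes that build and sulfate chondroitin, dermatan and keratan sulfate chains had 32 measured genes. Of these 1 rose and 0 fell, with a median log2 change of -0.03. An unadjusted p under 0.05 was found in 8 of the 32, against 16.0% of all genes. All 4 reverted arrays lay above all 4 quiescent arrays in 2 of the 32 and below in 4. Of all genes 8.73% lay apart in either direction. The riser was Chst11, encoding a chondroitin 4-O-sulfotransferase. Chst11 rose 1.48-fold from 7.56 ± 0.05 to 8.12 ± 0.18 (SD, n = 4), a log2 change of 0.56 ± 0.08 (SE, limma adjusted p = 0.0174). All 4 reverted arrays of Chst11 lay above all 4 quiescent arrays. With reverted array 3 left out, its adjusted p rose to 0.0648 and the count of called enzymes was 0.

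Among 29 receptors and factors bound by the family, 2 rose and 0 fell, with a median of 0.03. Of the 29, 9 had an unadjusted p under 0.05, against 16.0% of all genes. Cd44, a hyaluronan receptor that also binds proteoglycans, rose by 0.59 on the log2 scale, from 8.10 ± 0.14 to 8.69 ± 0.18 (SD, n = 4; adjusted p = 0.0334). The call of Cd44 was lost in 6 of the 8 fits that left out 1 array, all but those without quiescent array 4 or reverted array 2, and the adjusted p reached 0.117. Bmp6, a BMP ligand of the liver, rose by 0.92 on the log2 scale (limma adjusted p = 0.00171).

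Of 19 proteases and enhancers that process or cleave these core proteins, 0 rose and 0 fell in limma. An unadjusted p under 0.05, which 16.0% of all genes had, was found in 1 of the 19. That was Ctsk, encoding the collagen-degrading cathepsin K, at 0.38 ± 0.10 (SE; limma adjusted p = 0.13, or 0.0478 with quiescent array 4 left out). Pcolce, the enhancer of the procollagen C-proteinase, stood at 0.12 (adjusted p = 0.323). Among 31 proteoglycan core proteins of other families, 0 rose and 1 fell, with a median of -0.02. Of the 31, 5 had an unadjusted p under 0.05, against the same 16.0% of all genes. Ptprz1, a receptor phosphatase that carries chondroitin sulfate, fell from 6.12 ± 0.08 to 5.78 ± 0.08 (SD, n = 4; adjusted p = 0.0305) at percentile 13.4 of signal. The call of Ptprz1 held in 1 of the 8 fits that left out 1 array, the one without quiescent array 2, and the adjusted p reached 0.117.

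**Figure D4:**
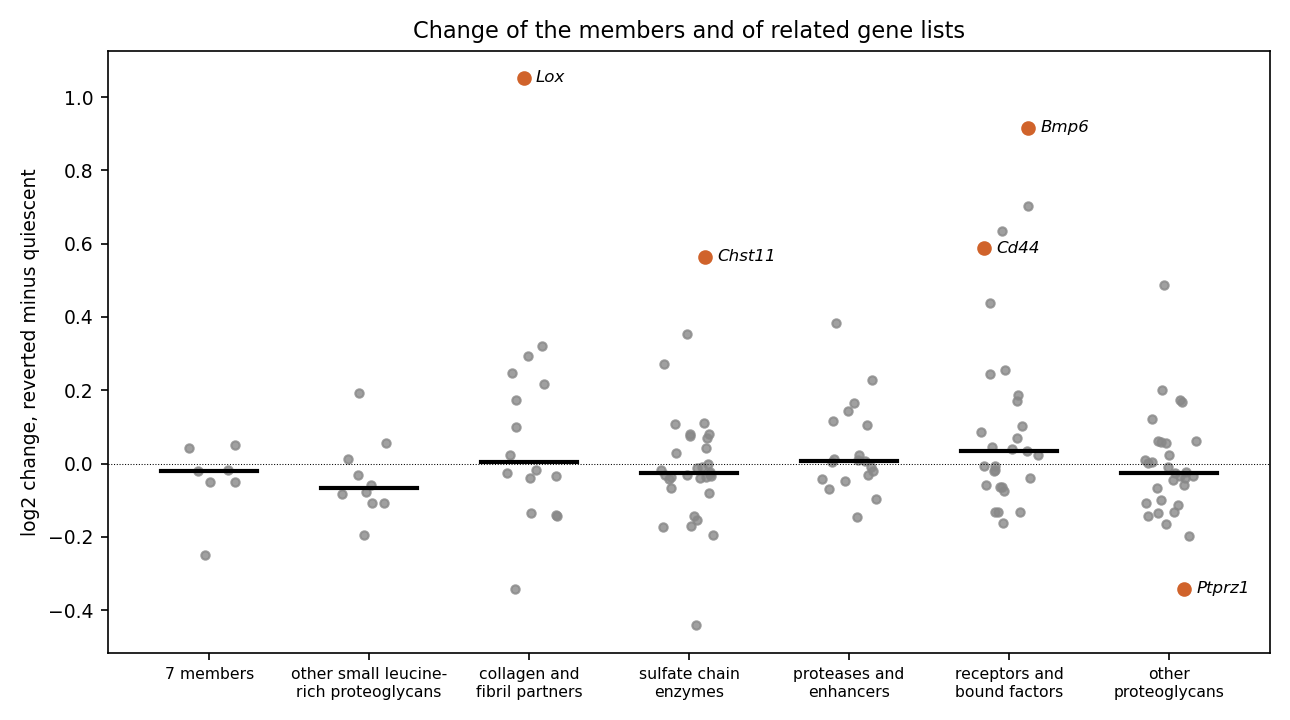
Log2 change from quiescent to reverted cells (vertical axis) of each gene in the 7 members and in 6 related lists (horizontal axis), with black bars for the medians and orange points for genes with an adjusted p under 0.05. The 5 orange points are Lox, Chst11, Cd44, Bmp6 and Ptprz1, and the list medians lie between -0.07 and 0.03.

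Among markers of other cells 3 genes rose and 1 fell. Of 17 measured hepatocyte markers 16 had a higher mean in the reverted group, 1 rose (Hp) and 1 fell (Trf). Of the 17, 11 had an unadjusted p under 0.05, against 16.0% of all genes, and their median log2 change was 0.44. Their summed signal ran from 13.50 to 14.33 on the log2 scale in quiescent and from 13.92 to 14.33 in reverted arrays. Of 20 markers of portal fibroblasts or mesothelium, cells that also make small leucine-rich proteoglycans, 2 rose (Wt1 and Dpt) and 15 had a lower mean. Of these 20 markers 7 had an unadjusted p under 0.05, against 16.0% of all genes. Their summed signal ran from 12.44 to 12.52 in quiescent and from 12.64 to 13.01 in reverted arrays. With Wt1 and Dpt left out, the sum of the other 18 overlapped, from 12.19 to 12.29 in quiescent and from 12.04 to 12.23 in reverted arrays. These 2 were left out because they were called, so this sum cannot show that the shift was confined to them. All 4 reverted arrays lay above all quiescent arrays in 3 of the 20 markers and below in 2. Of all genes 8.73% lay apart in either direction. Cd34 was among the 3 markers that lay above, at a log2 change of 0.60 (limma adjusted p = 0.0631). All 15 stellate markers had a lower mean in the reverted group, against 10685 of all 19938 genes. Of the 15, 0 were called and 2 had an unadjusted p under 0.05. Their summed signal ran from 17.61 to 17.64 in quiescent and from 17.56 to 17.62 in reverted arrays. Their mean log2 signal per array did not overlap, at 13.52 to 13.57 in quiescent and 13.47 to 13.51 in reverted arrays, a shift of -0.06. Their median log2 change was -0.03. The part of these markers in the values of the 7 genes was not tested, and in bulk RNA fewer cells of a type and less RNA per cell cannot be told apart. Of 10 smooth muscle, 15 endothelial, 16 myeloid, 8 cholangiocyte and 11 lymphocyte markers measured, 0 were called in limma, and 3, 2, 1, 0 and 0 of them in this order had an unadjusted p under 0.05.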

How the data were processed

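RNA of 8 samples was hybridised to a whole-transcript Affymetrix array (4 quiescent, 4 reverted), from 150 ng of RNA each. The deposited log2 values come from RMA (background correction, normalization between arrays and a summary per probe set), per the submitters' processing notes. RMA's version is not given in the sources used here, nor is a genome build. Arrays were matched to samples by column name. Of 35556 probe sets 21789 carried 1 gene symbol in the platform annotation, and the brightest per gene was used, leaving 19938 genes. No detection calls were used, and no filter was applied. The test was limma's moderated one (limma 3.58.1, R 4.3.3; lmFit, then eBayes), 2-sided and with no covariate, and intervals are those of the moderated fit at 95%. Tables and plots used Python 3.11.15, pandas 2.3.3 and matplotlib 3.10.9. The steps were tested on simulated data. Lists are described by counts and medians. The members and lists were chosen with earlier results of these data known. Named genes are all members, the called genes of each list or else the 2 with the smallest p, family genes and genome neighbours. The 3 genes nearest in profile to the 2 members with the widest range are named as well. Abi3bp, Hp, Trf, Wt1, Dpt and Cd34 were named after their values were seen. The sum of portal fibroblast and mesothelial markers without Dpt and Wt1 was added after seeing the data. The number of arrays limits the precision. Alternatives were quantile normalization, median centring, leaving out the lowest 25% of genes by signal, the mean of probe sets, a robust variance with intensity trend, weights per array, a block on the replicate number, and each array left out once.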

Additional observations from a re-analysis of the deposited data

Results flagged for a closer look

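In groups of 4, a single array stood apart from the rest by a gap past Dixon's 95% limit in 6 of 48 groups examined, which covered the members, the other family genes and the genes named from the 5 further lists; chance gives about 1 in 20. For the members these were Ogn in reverted array 2, at 9.56 against 10.07 to 10.10 in the other reverted arrays, and Bgn in quiescent array 4, at 14.35 against 14.41 to 14.42. Among related genes, Lox in reverted array 2 was at 7.24 against 7.60 to 7.66, and Cd44 in quiescent array 4 was at 8.32 against 8.02 to 8.04. Chad in reverted array 1 read 7.43 against 7.18 to 7.20, and Chadl in quiescent array 1 read 7.40 against 7.35 to 7.36.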

How the results depend on the processing

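The count of called members was 0 under all 15 alternatives, and none of 104 member values passed, with a lowest adjusted p of 0.155 (Ogn with the replicate block). The sign of Aspn turned with quantile normalization (0.00050) and array weights (0.0062), and over fits leaving out 1 array it ran from -0.039 to 0.00099, and Lum from -0.010 to 0.076. Aspn has no value without the lowest 25% of genes. In the family, Podn turned with quantile normalization (-0.028) and array weights (-0.0058). Leaving out 1 array it ran from -0.074 to 0.10, and Optc from -0.29 to 0.054. No other alternative reversed a member. All genes called numbered 219 with quantile normalization (128 up, 91 down), 306 with array weights and 63 with the replicate block, against 142, and 54 to 247 leaving out 1 array; the lowest count was without reverted array 4 and the highest without quiescent array 4. The chain enzymes called were 3 with quantile normalization (1 up, 2 down) and 0 with the block. The collagen partners called were 2 with quantile normalization, intensity trend or array weights. The other proteoglycans called were 0 with the block. They were also 0 without the lowest 25% of genes, a setting that leaves Ptprz1 itself out. Leaving out 1 array, the called counts ran from 0 to 1 for chain enzymes, other proteoglycans and proteases, from 1 to 2 for collagen partners and from 1 to 3 for receptors. With the block, Chst11 had an adjusted p of 0.0695 and Ptprz1 of 0.0554. The titles number the arrays alike in both groups, but deviations of same-numbered arrays correlated only between -0.148 and 0.0811. These values give no sign of pairing by number, but 4 arrays per group are too few to settle it. The cause of these moves was not tested, and depth has no counterpart here beyond the number of arrays and each gene's place on the signal scale.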
